A study of Homo sapiens with 5 samples.

Results

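The 39 genes described here encode the contractile and actin cytoskeleton of WI-38 cells, an established line of human diploid lung fibroblasts. They were taken as a named list: smooth muscle and myofibroblast genes, tropomyosins, non-muscle myosin II, relatives of calponin and transgelin, crosslinkers and focal adhesion proteins, cytoplasmic actins with their monomer-binding partners, vimentin, and the transcription factors SRF and MYOCD. They are 39 of the 44618 genes that had an annotated transcript in the deposited tables. Total RNA was sequenced in 5 libraries. They were made from cells with a population doubling level (PDL) of 55, from PDL 15 cells given siRNA against AUF1 or against HuR, from PDL 15 cells given a control siRNA, and from PDL 15 cells with no siRNA named. RNA was amplified with single-primer isothermal chemistry, which copies RNA with and without a poly(A) tail, and all groups were of the same cell line. Each group had 1 library, so no value has a replicate check, no test between groups was possible, and each ratio compares 2 libraries rather than 2 conditions. AUF1 (gene HNRNPD) and HuR (gene ELAVL1) are proteins that bind AU-rich stretches of mRNA.

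Smooth muscle actin, calponin and transgelin are the genes by which a fibroblast that has become contractile, a myofibroblast, is usually recognised. In such cells non-muscle myosin II pulls on actin filaments that tropomyosins coat, and the filaments end in focal adhesions, where talin, vinculin, zyxin and paxillin link them to integrins. Many of these genes are activated by serum response factor (SRF), which binds a short DNA element called the CArG box and works with either myocardin (MYOCD) or the actin-regulated cofactors MRTFA and MRTFB.

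RefSeq promoter sequences (build GRCh38.p14) were at hand for 33 of the 39 genes, as 54 windows, because some genes have several starts. A CArG box lay in the 250 bases before the start in 8 of these 54 windows, or 14.8%, against 407 of 35116 windows of all genes, or 1.16%. The element reads the same way on both strands, and it was the only motif searched. The 8 genes were ACTG2, ACTG1, ACTN1, CNN2, MYLK, TPM4, FLNA and SRF. No sequence was at hand for MYH11, MYL9, ACTB, MYOCD, DES and TAGLN, so these were not searched. A match is a stretch of letters, and a window without one says nothing about the factor. The stretches of 5 of these genes whose levels are followed in detail are shown, with the CArG box in capitals and each sequence on the strand of its gene.
ACTG2 (chr2:73892878-73892964, plus strand): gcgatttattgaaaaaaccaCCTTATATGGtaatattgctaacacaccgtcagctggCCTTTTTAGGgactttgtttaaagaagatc
CNN2 (chr19:1026499-1026548, plus strand): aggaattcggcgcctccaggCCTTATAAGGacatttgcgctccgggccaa
MYLK (chr3:123620613-123620662, minus strand): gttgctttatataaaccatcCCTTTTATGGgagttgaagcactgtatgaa
FLNA (chrX:154374699-154374748, minus strand): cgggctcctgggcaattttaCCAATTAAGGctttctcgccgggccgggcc
SRF (chr6:43171219-43171268, plus strand): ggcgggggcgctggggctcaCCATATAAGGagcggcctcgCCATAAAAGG
ACTG2 and SRF each held 2 boxes, and in SRF the nearer one ended 1 base before the start.

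Levels are summed over the annotated transcripts of a gene in FPKM, which counts fragments relative to transcript length and library size. The number of reads was not given in the sources used here. A relative measure of depth, coverage divided by FPKM, was 1.29 at PDL 55, 1.25 with AUF1 siRNA, 1.14 with HuR siRNA, 0.300 with control siRNA and 1.26 at PDL 15. In the control siRNA library 80.4% of FPKM times length lay in transcripts assembled from the reads, against 25.1% to 29% in the other 4. HNRNPD had an FPKM of 20.3 with AUF1 siRNA and 61.2 with control siRNA, while the level was 42.3 at PDL 55, 120.3 in the HuR siRNA library and 119 at PDL 15. ELAVL1 had 9.72 with HuR siRNA and 11.8 with control siRNA, with overlapping 95% bounds, while the level was 12.2 at PDL 55, 17.7 in the AUF1 siRNA library and 16.7 at PDL 15. The ELAVL1 values therefore do not separate the library labelled HuR siRNA from its control. Fibroblast collagen COL1A2 lay between 198 and 1112 in the 5 libraries, COL1A1 was listed at 0 with HuR siRNA, and THY1 was listed at 0 at both doubling levels without siRNA and had 154 with control siRNA. The 4 epithelial markers summed to between 1.69 and 9.75, the highest with AUF1 siRNA, where KRT19 had 9.24, against 0 for KRT19 with control siRNA. The 8 cardiac and skeletal muscle markers summed to between 3.84 and 5.93, and the summed level of 3 endothelial markers was at most 2.02 and that of 3 blood markers at most 3.53. Whether a marker listed at 0 here had reads at its locus was not examined.

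Each annotated transcript carries a status. LOWDATA marks a locus too complex or too thinly covered, and FAIL marks an estimate that did not converge. The 39 genes had 358 annotated transcripts per library. Of these, 105 to 110 were LOWDATA in each library, and 33 of the 39 genes had at least 1. FAIL marked 15 transcripts at PDL 55, 10 with AUF1 siRNA, 35 with HuR siRNA, 43 with control siRNA and 11 at PDL 15. It touched 11 genes: ACTB, CFL1, FLNC, MYH9, MYH11, PDLIM5, TLN1, TPM2, TPM3, VIM and ZYX. They are left out of the log2 ratios and of all counts of genes, and a plain ratio of FPKM is given for them only between libraries where the gene had no FAIL transcript and was above 0. A gene can be listed at exactly 0 because its estimate failed, but zeros also occurred without FAIL, as for TPM4 at PDL 15 and MYL6 with control siRNA. With or without FAIL, 15 genes were listed at 0 in at least 1 library. They were 3 genes at PDL 55, 4 with AUF1 siRNA, 7 with HuR siRNA, 7 with control siRNA and 3 at PDL 15. With a mean of at least 1 FPKM over the 5 libraries there were 36 genes, and MYH11, DES and MYOCD were below. Ratios were therefore available for 26 genes.

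**Figure D1:**
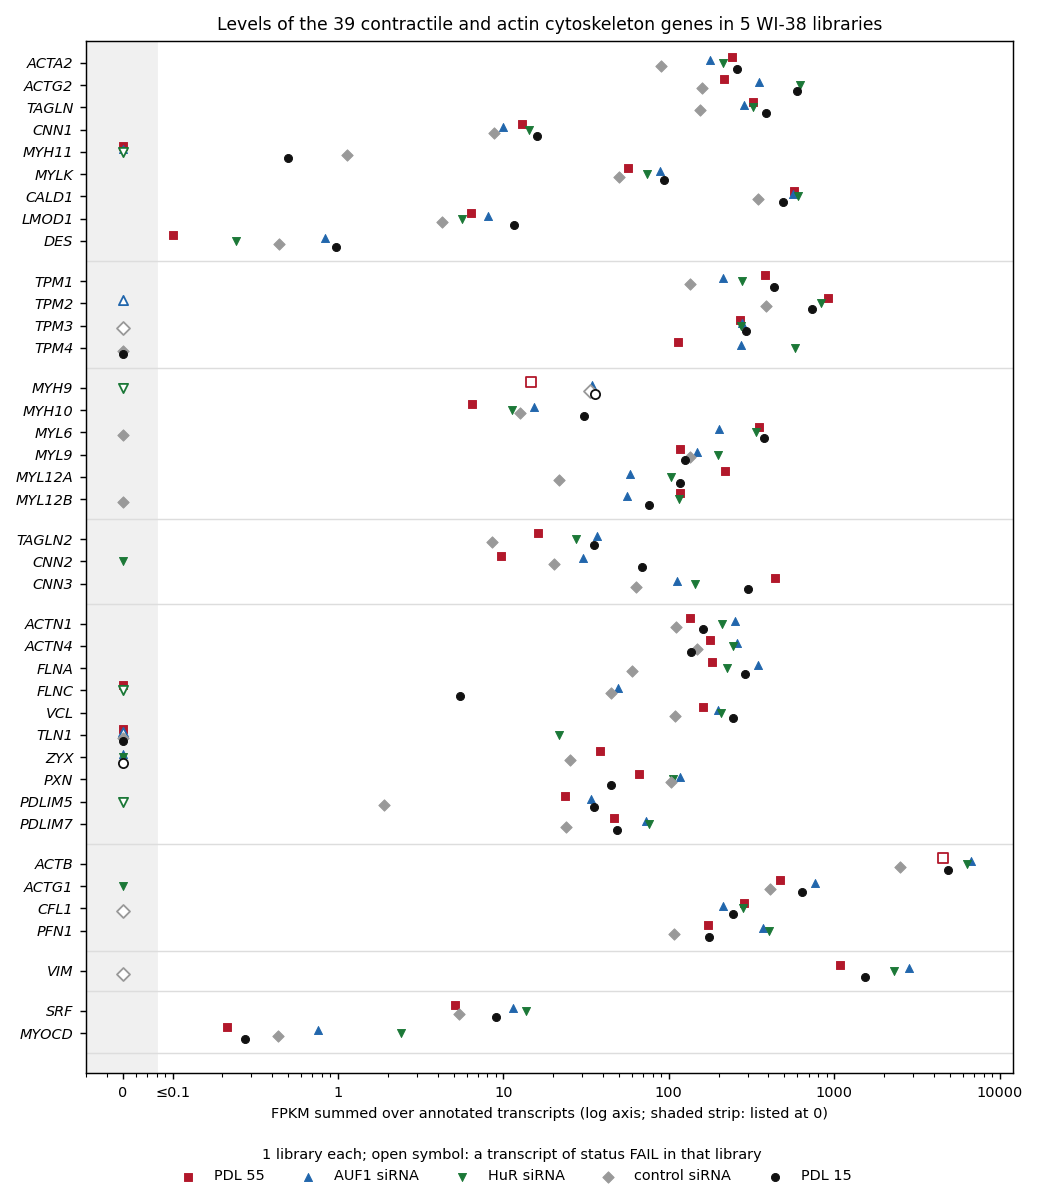
FPKM of each of the 39 genes in the 5 libraries on a log axis, grouped by role, with 1 symbol per library, an open symbol where a transcript had status FAIL, and a shaded strip for genes listed at 0. The control siRNA library (grey) is the leftmost of the 5 in most genes above 0, and ACTB lies farthest to the right.

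By their annotated transcripts, most of these genes had their lowest value in the control siRNA library. Of the 39 genes, 21 had no FAIL transcript, a value above 0 in all 5 libraries and a mean of at least 1 FPKM. The lowest of the 5 libraries was control siRNA in 16 of the 21, or 76.2%, against 34.5% of the 11489 genes meeting the same conditions. With the median gene of every library set equal, it was 15 of 21, or 71.4%, against 22.8% of all genes. With assembled transcripts of at least 300 nt added, an alternative chosen after seeing the data, it was 12 of 21, or 57.1%, against 38.1% of all genes, and with the median gene also set equal 10 of 21, or 47.6%, against 21.6%. MYLK, TAGLN2, LMOD1 and PFN1 were then lowest at PDL 55 as deposited. The exceptions by annotated transcripts were MYH10, MYL9 and SRF, lowest at PDL 55, and ACTN4 and PXN, lowest at PDL 15. The highest library was PDL 15 in 8 genes, HuR siRNA in 6, AUF1 siRNA in 5, PDL 55 in 2 and control siRNA in 0. The highest value over the lowest ranged from 1.7 in MYL9 to 10.2 in MYL12A, with a median of 2.74. The control siRNA library also had the lowest coverage per FPKM, and its part in these values was not tested. Fewer cells of a type and less RNA per cell cannot be told apart in such bulk libraries.

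Among the smooth muscle and myofibroblast genes, the actins and transgelin were abundant, calponin 1 was not, and MYH11 and DES were at or near 0. ACTA2, smooth muscle alpha-actin (ENSG00000107796, hg19 chromosome 10, 90694831 to 90751147), had an FPKM of 242 at PDL 55, 179 with AUF1 siRNA, 214 with HuR siRNA, 89.6 with control siRNA and 260.4 at PDL 15. ACTG2, smooth muscle gamma-actin (ENSG00000163017, hg19 chromosome 2, 74119441 to 74146992), had 215 at PDL 55, 352 with AUF1 siRNA, 618 with HuR siRNA, 159 with control siRNA and 598 at PDL 15. TAGLN, the actin-binding protein transgelin, had 324 at PDL 55, 285 with AUF1 siRNA, 325 with HuR siRNA, 154 with control siRNA and 390 at PDL 15 (389.8 before rounding). ACTA2 and TAGLN thus shared an order in which control siRNA was far below the other 4, whereas ACTG2 was low in both the PDL 55 and control siRNA libraries. CNN1, calponin 1, which inhibits the myosin ATPase, was much less abundant, at 13.0 at PDL 55, 9.96 with AUF1 siRNA, 14.3 with HuR siRNA, 8.78 with control siRNA and 15.9 at PDL 15. Its 95% bounds overlapped between AUF1 siRNA and control siRNA and between PDL 55 and PDL 15.

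MYLK, the kinase that phosphorylates myosin light chains, had 56.4 at PDL 55, 88.6 with AUF1 siRNA, 73.7 with HuR siRNA, 49.95 with control siRNA and 93.9 at PDL 15. Its transcripts were not the same everywhere: ENST00000360304, of 7834 nt, held 76.9% of the gene's FPKM at PDL 15 and 29% to 52.3% in the other libraries, and ENST00000346322, of 5892 nt, was listed at 0 at PDL 15 only. CALD1, caldesmon, which binds actin and tropomyosin, varied least of the group, from 345 with control siRNA to 604 with HuR siRNA (603.5), with 576 at PDL 55, 567 with AUF1 siRNA and 489 at PDL 15. The 527-nt transcript ENST00000445569 held 30.9% of it with control siRNA and 43% to 60.4% in the other 4. LMOD1, leiomodin 1, a smooth muscle actin nucleator, had 6.39 at PDL 55, 8.11 with AUF1 siRNA, 5.59 with HuR siRNA, 4.25 with control siRNA and 11.7 at PDL 15. MYH11, the smooth muscle myosin heavy chain, was 1.14 with control siRNA, 0.50 at PDL 15 and listed at 0 in the other 3 libraries, with status FAIL in the HuR siRNA library. DES, desmin, the muscle intermediate filament, stayed under 1 in all 5 libraries, with a highest value of 0.979 at PDL 15. SMTN, smoothelin, another marker of mature smooth muscle, had 80.5 with AUF1 siRNA and 82.6 with HuR siRNA and was listed at 0 in the other 3 libraries. The status and the assembled transcripts of SMTN were not examined, so its zeros cannot be read as a locus without reads.

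**Figure D2:**
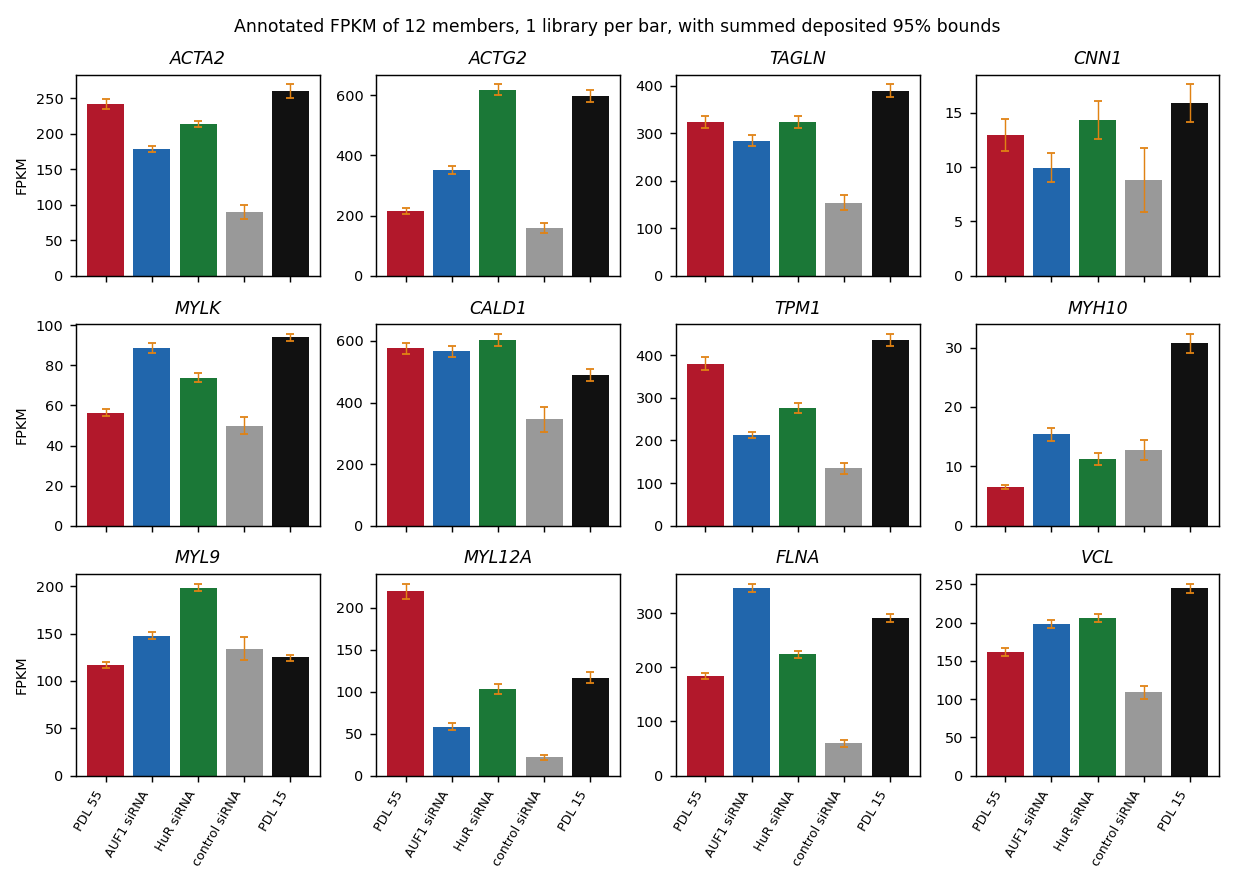
Annotated FPKM (vertical axes, each starting at 0) of 12 genes in the 5 libraries, 1 bar per library, with whiskers for the summed deposited 95% bounds, which describe the estimate within a library. The grey control siRNA bar is the shortest for 10 of the 12 genes, and MYH10 and MYL9 are the exceptions, with PDL 55 lowest.

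The tropomyosins, which coat actin filaments and set which myosins may bind, were all abundant where they were measured. TPM1 had 380.1 at PDL 55, 213 with AUF1 siRNA, 276 with HuR siRNA, 134 with control siRNA and 435 at PDL 15. Its transcript ENST00000380364 held 37.9% of TPM1 at PDL 15, 30.4% at PDL 55 and 33.2% with HuR siRNA, but was listed at 0 in the AUF1 siRNA and control siRNA libraries, so the total depends on how reads were divided among isoforms. TPM2 had 922 at PDL 55, 835 with HuR siRNA, 387 with control siRNA and 737 at PDL 15, and was listed at 0 with status FAIL with AUF1 siRNA. An assembled transcript reaching over TPM2 and its neighbour TLN1 added 160 at PDL 55 (159.8) and 162 at PDL 15. TPM3 lay between 268 and 292 in 4 libraries and was listed at 0 with status FAIL with control siRNA. By annotated transcripts TPM4 was highest in the HuR siRNA library at 581, with 273 in the AUF1 siRNA library and 114 at PDL 55. It was listed at 0 with control siRNA and at PDL 15. At the same locus assembled transcripts held 289 FPKM at PDL 55, 66.9 with AUF1 siRNA, 188.5 with control siRNA and 376 at PDL 15. Those reaching over other genes held a further 474 with control siRNA and 706.5 at PDL 15. The zeros of TPM4 thus do not stand for a locus without reads, and no fold is given against control siRNA or PDL 15.

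In non-muscle myosin II, the heavy chain MYH10 was lowest at PDL 55, where the light chain MYL12A was highest. MYH10, the heavy chain of myosin IIB, had 6.47 at PDL 55, 15.4 with AUF1 siRNA, 11.2 with HuR siRNA, 12.7 with control siRNA and 30.7 at PDL 15. At PDL 55 only ENST00000269243 was above 0, while at PDL 15 the gene was divided among 3 transcripts of nearly equal length. MYH9, the heavy chain of myosin IIA, was 34.6 with AUF1 siRNA, and its other values carried status FAIL: 14.7 at PDL 55, 0 with HuR siRNA, 33.5 with control siRNA and 35.8 at PDL 15. MYL9, the regulatory light chain of smooth muscle type, had the narrowest range of the 21 genes, with 117 at PDL 55, 148 with AUF1 siRNA, 199 with HuR siRNA, 134 with control siRNA and 125 at PDL 15.

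MYL12A, a regulatory light chain of non-muscle myosin (hg19 chromosome 18, 3247528 to 3256234), had 219.7 at PDL 55, 58.3 with AUF1 siRNA, 103 with HuR siRNA, 21.6 with control siRNA and 117 at PDL 15. MYL12B, its neighbour on the same chromosome (3261907 to 3278282), had 117 at PDL 55, 55.7 with AUF1 siRNA, 115.5 with HuR siRNA, 0 with control siRNA and 76.3 at PDL 15. Both were lowest with control siRNA, and MYL12A was highest at PDL 55, while the bounds of MYL12B overlapped between PDL 55 and HuR siRNA. With control siRNA an assembled transcript of 40.2 FPKM reached over both genes. The pair also shares sequence: 9.5% of the 30-base windows of MYL12A transcripts occur in MYL12B transcripts, so their division is uncertain. For ACTB and ACTG1 this share was 3.05%, and for ACTA2 and ACTG2 it was 0. MYL6, the essential light chain, had 352 at PDL 55, 199.9 with AUF1 siRNA, 339 with HuR siRNA and 374.5 at PDL 15. Assembled transcripts of at least 300 nt brought MYL6 to 698 at PDL 55 and 425 with AUF1 siRNA, both above HuR siRNA and PDL 15. With control siRNA MYL6 was listed at 0, while an assembled transcript reaching over MYL6 and other genes held 181.5.

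The calponin and transgelin relatives are found in many cell types beyond muscle. CNN3, the acidic calponin, had 438 at PDL 55, 112 with AUF1 siRNA, 143 with HuR siRNA, 63.7 with control siRNA and 303 at PDL 15. CNN2 had 9.70 at PDL 55, 30.3 with AUF1 siRNA, 0 with HuR siRNA, 20.2 with control siRNA and 69.2 at PDL 15, all on LOWDATA transcripts. CNN3 was therefore highest at PDL 55 while annotated CNN2 was low there, but assembled CNN2 transcripts of at least 300 nt added 32.2 at PDL 55, 40.4 with AUF1 siRNA, 87.6 with HuR siRNA, 44.4 with control siRNA and 14.3 at PDL 15. TAGLN2, transgelin 2, had 16.3 at PDL 55, 36.8 with AUF1 siRNA, 27.3 with HuR siRNA, 8.50 with control siRNA (8.495) and 35.2 at PDL 15.

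Among crosslinkers and focal adhesion genes, FLNA ranged most widely of those above 0 and without FAIL. FLNA, filamin A, which crosslinks actin into networks (ENSG00000196924, hg19 chromosome X, 153576892 to 153603006), had 184 at PDL 55, 346 with AUF1 siRNA, 224 with HuR siRNA, 59.7 with control siRNA and 291 at PDL 15. In 4 of the 5 libraries the whole of it lay on ENST00000438732, a LOWDATA transcript of 696 nt, and with AUF1 siRNA 89.3% did, so the FLNA level rests on a short fragment of the gene. VCL, vinculin, had 161 at PDL 55, 198 with AUF1 siRNA, 206 with HuR siRNA, 109 with control siRNA and 245 at PDL 15. ACTN1, alpha-actinin 1, had 134 at PDL 55, 250.2 with AUF1 siRNA, 209.6 with HuR siRNA, 110.4 with control siRNA and 160.2 at PDL 15, and ACTN4 lay between 136 and 259. PXN, the adaptor paxillin, had 65.8 at PDL 55, 118 with AUF1 siRNA, 105 with HuR siRNA, 104 with control siRNA and 44.9 at PDL 15. PXN was thus higher in all 3 transfected libraries than in either untransfected one. PDLIM7, which ties actin to kinases, had 46.9 at PDL 55, 72.7 with AUF1 siRNA, 75.7 with HuR siRNA, 23.8 with control siRNA and 48.5 at PDL 15. Assembled PDLIM7 transcripts of at least 300 nt added 77.2 at PDL 15.

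The 4 other adhesion genes could be followed only in part. ZYX, zyxin, had 38.3 at PDL 55 and 25.3 with control siRNA, and was listed at 0 in both knockdown libraries and, with status FAIL, at PDL 15. TLN1, talin, was above 0 only with HuR siRNA, at 21.6, and its 0 with AUF1 siRNA carried status FAIL. FLNC, filamin C, had 49.2 with AUF1 siRNA, 44.8 with control siRNA and 5.45 at PDL 15, and was listed at 0 at PDL 55 and, with status FAIL, with HuR siRNA. PDLIM5 had 23.7 at PDL 55, 34.1 with AUF1 siRNA, 1.90 with control siRNA (1.897) and 35.1 at PDL 15, and was listed at 0 with status FAIL with HuR siRNA. With control siRNA assembled PDLIM5 transcripts held 148 FPKM, of which 20.4 lay in those of at least 300 nt. In both knockdown libraries, where ZYX was listed at 0, assembled transcripts held 90.3 FPKM in the AUF1 siRNA library and 68.3 in the HuR siRNA library. At PDL 15 the longest assembled transcript, of 2016 nt, was itself listed at 0.

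**Figure D3:**
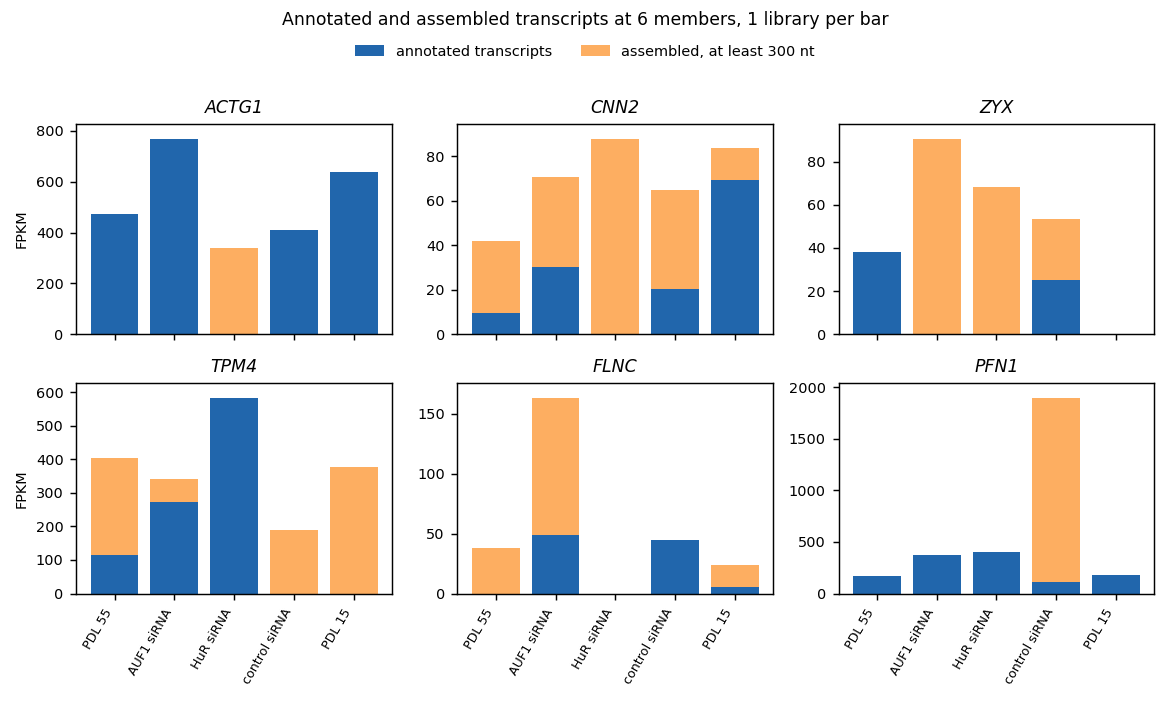
FPKM (vertical axes, each starting at 0) of annotated transcripts (blue) and of assembled transcripts of at least 300 nt (orange) at 6 genes, 1 bar per library. ACTG1, CNN2 and ZYX with HuR siRNA, and TPM4 at PDL 15, consist of assembled transcripts alone, and PFN1 with control siRNA is dominated by 1783 assembled FPKM.

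The cytoplasmic actins and their partners include the most abundant member. ACTB, beta-actin, had 6732 with AUF1 siRNA, 6380.0 with HuR siRNA, 2493 with control siRNA and 4847 at PDL 15, and 4579 with status FAIL at PDL 55. ACTG1, cytoplasmic gamma-actin, had 472.5 at PDL 55, 767 with AUF1 siRNA, 0 with HuR siRNA, 412 with control siRNA and 639.9 at PDL 15. Its annotated transcripts were all LOWDATA where above 0, with bounds reaching down to 0 in all but the PDL 55 library of those 4. With HuR siRNA its locus held 339 FPKM of assembled transcripts and 1541 of assembled transcripts reaching over other genes. PFN1, profilin 1, which feeds actin monomers to growing filaments, had 172 at PDL 55, 372 with AUF1 siRNA, 403 with HuR siRNA, 107 with control siRNA and 176 at PDL 15. CFL1, cofilin 1, which severs filaments, lay between 213 and 286 in 4 libraries and was listed at 0 with status FAIL with control siRNA. VIM, vimentin, the intermediate filament of fibroblasts, had 1090.0 at PDL 55, 2827 with AUF1 siRNA, 2305 with HuR siRNA and 1534 at PDL 15, and was listed at 0 with status FAIL with control siRNA. All of it lay on LOWDATA transcripts. With HuR siRNA, assembled transcripts reaching over VIM and other genes held 2124.

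SRF had 5.08 at PDL 55, 11.4 with AUF1 siRNA, 13.7 with HuR siRNA, 5.39 with control siRNA and 8.97 at PDL 15. SRF was thus low at PDL 55 and with control siRNA and highest in both knockdown libraries. MYOCD, the smooth muscle and heart cofactor of SRF, was 2.42 with HuR siRNA and under 1 in the other 4 libraries, at 0.214 at PDL 55, 0.762 with AUF1 siRNA, 0.435 with control siRNA and 0.274 at PDL 15. MRTFA had 13.4 at PDL 55, 41.3 with AUF1 siRNA, 10.3 with HuR siRNA, 35.1 with control siRNA and 40.7 at PDL 15. MRTFB had 3.54 at PDL 55, 8.02 with AUF1 siRNA, 5.07 with HuR siRNA, 7.30 with control siRNA and 10.4 at PDL 15. Both cofactors were therefore lowest at PDL 55 and with HuR siRNA, as against the other 3 libraries.

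Ratios are on a log2 scale after adding 1 to each FPKM, which shrinks the differences of low genes. Over the 13056 genes compared, the median ratio as deposited was -0.32 for PDL 55 against PDL 15, 0.18 for AUF1 siRNA against control siRNA, 0.30 for HuR siRNA against control siRNA, -0.12 for AUF1 siRNA against HuR siRNA and -0.41 for control siRNA against PDL 15. All ratios that follow are relative to that median, so the median of all genes is 0, and called means at least 2-fold apart on this scale.

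At PDL 55 against PDL 15 the contractile genes as a group differed little. Single genes were at least 2-fold apart about as often as all genes were. ACTA2 was at 0.21, TAGLN at 0.05, CNN1 at 0.05 and TPM1 at 0.12, all near the median gene. MYH10 was lower, at -1.77, and CNN2 was lower, at -2.39. MYL12A was higher, at 1.23, with MYL12B at 0.93 and CNN3 at 0.85 short of 2-fold. Of the 26 genes with a ratio, 2 were called higher, MYL12A and TPM4 (TPM4 was listed at 0 at PDL 15), against 9.4% of all genes. Lower were 3, ACTG2, CNN2 and MYH10, against 10.1% of all genes. The median of the 26 was 0.09. With 7.69% and 11.5% of the 26 genes called, the shares were close to those of all genes.

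ACTG2 was at -1.15 at PDL 55 against PDL 15 but at 0.38 against the control siRNA library, so its side depended on which PDL 15 library it was set against. MYH10 and CNN2 were lower against both, at -0.92 and -1.03 against control siRNA. MYH10 was at -0.09 against PDL 15 where 1 transcript per gene was used. Against control siRNA 9 of the 26 genes were at least 2-fold higher at PDL 55, against 15.5% of all genes, and 1 was lower, against 16.4%. MYL12A was at 0.91 against PDL 15 as deposited, without centring on the median gene. With assembled CNN2 transcripts of at least 300 nt added, CNN2 was at -0.65 against PDL 15. With those at MYL6 and PDLIM7 added, MYL6 went from 0.23 to 1.23 and PDLIM7 from 0.27 to -1.07. MYL9 was at 0.23, FLNA at -0.34, VCL at -0.28, ACTG1 at -0.12 and SRF at -0.39 against PDL 15, and none of these reached 2-fold. TPM2 and VIM have no ratio here because of FAIL elsewhere, and the FPKM at PDL 55 was 1.25 times that at PDL 15 for TPM2 and 0.711 times for VIM. MYH9, ZYX and ACTB carried FAIL in at least 1 of the 2 libraries, and MYOCD was under 1 FPKM in both libraries.

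**Figure D4:**
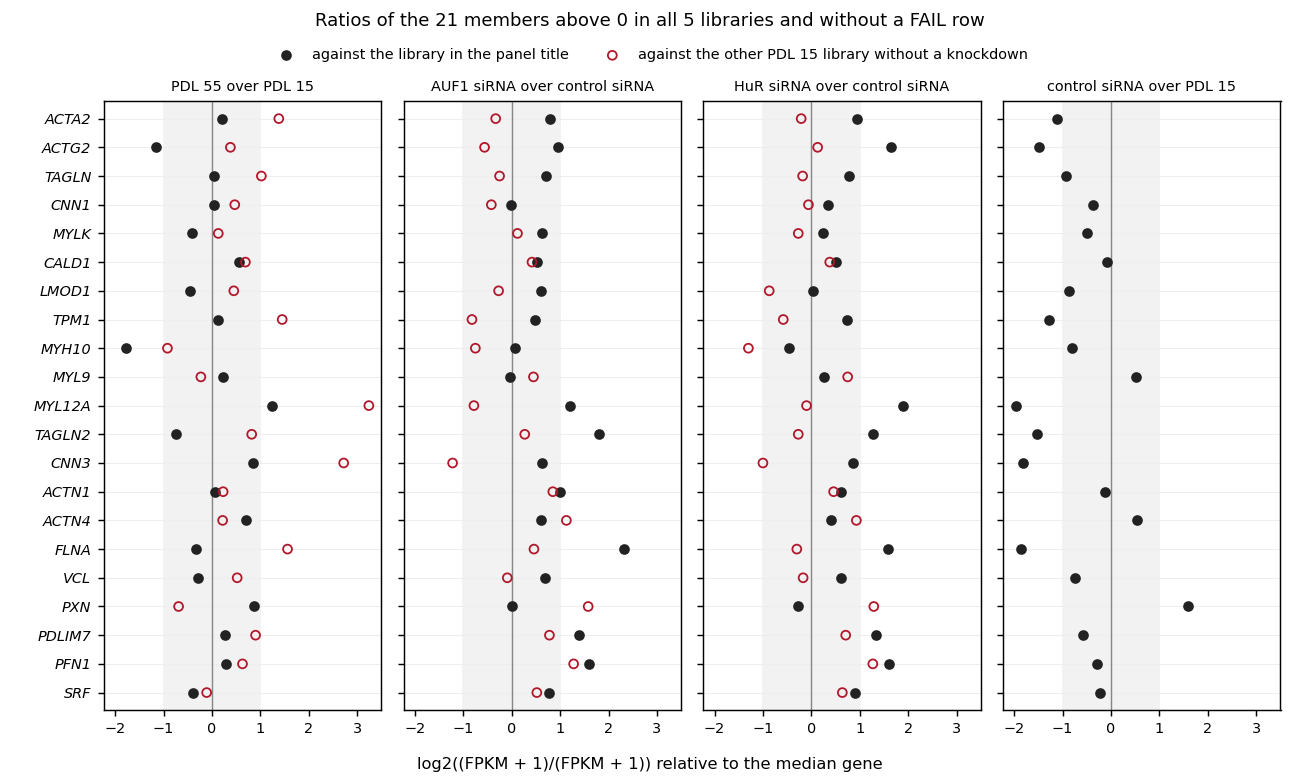
log2 ratios relative to the median gene (horizontal axes) of the 21 genes above 0 in all 5 libraries, without FAIL and with a mean of at least 1 FPKM, with the shaded band marking less than 2-fold. Black points use the library in the panel title and open red points the other PDL 15 library without a knockdown; in the AUF1 and HuR panels most red points lie left of the black ones.

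With AUF1 siRNA the contractile genes were mostly above the control siRNA library, and among genes above 0 in both libraries FLNA was the farthest above. FLNA was at 2.33, TAGLN2 at 1.81, PFN1 at 1.60, PDLIM7 at 1.39 and MYL12A at 1.21. ACTA2 was at 0.80, TAGLN at 0.70, VCL at 0.68, TPM1 at 0.48, SRF at 0.77 and ACTG1 at 0.71, short of 2-fold. CNN1 at -0.02, MYL9 at -0.04, PXN at 0.00 and MYH10 at 0.07 lay at the median gene. Called higher were 8 of the 26 genes, against 10.2% of all genes, and 3 of the 8 (MYL6, MYL12B and TPM4) were listed at 0 with control siRNA. Called lower were 0 of the 26, against 11.5% of all genes. The median of the 26 was 0.71.

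Set against the other PDL 15 library, the same AUF1 siRNA values had a median of 0.01. By annotated transcripts FLNA was then at 0.46, TAGLN2 at 0.27 and PDLIM7 at 0.78, on the same side but short of 2-fold. PFN1 was at 1.28, ACTN4 at 1.13 and PXN at 1.58, which were higher by at least 2-fold. MYL12A turned to -0.78, and ACTA2 was at -0.33, TAGLN at -0.25, TPM1 at -0.82 and CNN3 at -1.22. With assembled transcripts of at least 300 nt added, PFN1 turned to -2.59 against control siRNA, where 1783 FPKM were assembled, and TAGLN2 was at 0.47. They brought PDLIM7 to 125.7 FPKM and FLNA to 587 at PDL 15, above 72.7 and 421.5 with AUF1 siRNA. By FPKM times length, MYL12A was at 0.92 and PDLIM7 at 0.63. ACTB had 2.7 times the FPKM of the control siRNA library with AUF1 siRNA, and TPM2, VIM and ZYX were each listed at 0 in 1 of the 2 libraries. MYH9 had 34.6 with AUF1 siRNA and 33.5, with status FAIL, with control siRNA, and MYOCD was under 1 in both.

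With HuR siRNA the picture against the same control siRNA library was similar in size, and since both knockdowns share that library their likeness is not independent. MYL12A was at 1.90, ACTG2 at 1.65, PFN1 at 1.60, FLNA at 1.59, PDLIM7 at 1.33 and TAGLN2 at 1.28. ACTA2 was at 0.94, SRF at 0.90, TAGLN at 0.77, TPM1 at 0.73, VCL at 0.61, CNN1 at 0.35 and MYL9 at 0.26, short of 2-fold, and MYH10 was at -0.46 with overlapping bounds. Called higher were 9 of the 26 genes, against 10.9% of all genes, and 3 of the 9 were listed at 0 with control siRNA. Called lower were 2, against 11.9% of all genes: ACTG1 and CNN2, both listed at 0 with HuR siRNA while assembled transcripts were present. The median of the 26 was 0.75.

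Against the other PDL 15 library the median with HuR siRNA was -0.08. PFN1 was at 1.27, PXN at 1.29 and PDLIM7 at 0.71. By annotated transcripts PFN1 and PDLIM7 were on the higher side against both. ACTG2 was at 0.13, and FLNA, TAGLN2 and MYL12A turned to -0.30, -0.27 and -0.10. MYH10 was at -1.30. Against control siRNA, no usable ratio of FLNA remained without LOWDATA transcripts, since they held all of it in both libraries. With assembled transcripts of at least 300 nt, PFN1 turned to -2.59 and TAGLN2 was at 0.15, and by FPKM times length PDLIM7 was at 0.69. With those assembled transcripts PDLIM7 had 125.7 FPKM at PDL 15, above 75.7 with HuR siRNA. ACTB had 2.56 times and TPM2 2.16 times the FPKM of the control siRNA library. MYH9, VIM and ZYX were each listed at 0 in 1 of the 2 libraries. MYOCD was 2.42 with HuR siRNA and 0.435 with control siRNA, too low for a ratio under the minimum of 1.

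Between the knockdowns, AUF1 siRNA against HuR siRNA, the contractile genes were close to one another. TPM4 was at -0.97, MYL12B at -0.92, MYL12A at -0.70, ACTG2 at -0.69 and MYL6 at -0.64, lower with AUF1 siRNA but short of 2-fold. With assembled transcripts of at least 300 nt, MYL6 had 425 FPKM with AUF1 siRNA, above 339 with HuR siRNA. FLNA was at 0.74, LMOD1 at 0.59 and MYH10 at 0.54, higher with AUF1 siRNA and also short of 2-fold. ACTA2 at -0.14, TAGLN at -0.07, PFN1 at 0.00, VCL at 0.06, SRF at -0.13, TPM1 at -0.26, CNN1 at -0.37 and MYL9 at -0.31 differed less. Called higher were 2 of the 26, against 6.36% of all genes, both genes listed at 0 with HuR siRNA (ACTG1 and CNN2). Called lower were 0, against 6.3% of all genes, and the median was 0.01. By annotated transcripts VIM had 1.23 times and ACTB 1.06 times the FPKM of the HuR siRNA library, and TPM2, MYH9 and ZYX were listed at 0 in at least 1 of the 2. The VIM ratio leaves out 2124 FPKM with HuR siRNA in assembled transcripts reaching over VIM and other genes.

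The control siRNA library against PDL 15, which compares 2 libraries of the same doubling level without a knockdown, placed 22 of the 26 genes below the median gene. MYL12A was at -1.97, FLNA at -1.85, CNN3 at -1.82, TAGLN2 at -1.52, ACTG2 at -1.49, CNN2 at -1.31, TPM1 at -1.28 and ACTA2 at -1.12. Lower by less were TAGLN at -0.92, MYH10 at -0.80, VCL at -0.75, CNN1 at -0.38, SRF at -0.23 and ACTG1 at -0.22. On the higher side, PXN was at 1.60, ACTN4 at 0.54 and MYL9 at 0.51. Called lower were 10 of the 26, against 11.6% of all genes, 2 of them (MYL6 and MYL12B) listed at 0 with control siRNA. Called higher was 1, PXN, against 14.0% of all genes. The median of the 26 was -0.77. ACTB and TPM2 had 0.514 and 0.525 times the FPKM of the PDL 15 library, and VIM and ZYX were each listed at 0 in 1 of the 2. MYH9 carried FAIL in both, and MYOCD was under 1 in both. With 1 transcript per gene TPM1 was at 0.14 and ACTA2 at -0.84. With assembled transcripts of at least 300 nt CNN2 was at 0.09, TAGLN2 at -0.26 and TPM1 at -0.85. Without LOWDATA transcripts no usable ratio of FLNA remained, since they held all of it in both libraries. The transfection and the depth of the control siRNA library cannot be told apart here.

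Genes that act on this machinery were read from 4 lists of 49 genes in all, of which 43 had a ratio: SRF cofactors with regulators of myosin activity, integrins and adhesion adaptors, actin assembly, and TGF-beta with matrix-linked myofibroblast genes. At PDL 55 against PDL 15, 8 of the 43 were at least 2-fold higher, against 9.4% of all genes, and 4 were lower, against 10.1%. With assembled transcripts of at least 300 nt added, 5 were higher and 1 lower. TGFBR1, a TGF-beta receptor, was at -1.93 and was at -2.15 with assembled transcripts, and ITGB5, an integrin subunit, was at 1.30 and 1.39. ITGA5, a fibronectin receptor subunit, was at 1.71 by annotated transcripts, with 24.3 FPKM at PDL 55 and 8.62 at PDL 15, but at 0.16 with assembled transcripts. PALLD, the actin crosslinker palladin, was at 1.41, but all of its FPKM in both libraries lay on LOWDATA transcripts. MRTFA was at -1.21 and PARVA at -1.14, against -0.56 and -0.90 with assembled transcripts, and MRTFB was at -1.01. PPP1R12A, PFN2 and TGFBR2 were counted as higher, but were listed at 0 at PDL 15.

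With AUF1 siRNA against control siRNA 9 of the 43 were higher, against 10.2% of all genes, and 3 were lower, against 11.5%. With HuR siRNA 11 were higher, against 10.9% of all genes, and 2 were lower, against 11.9%. Both sets use the same control siRNA library. With assembled transcripts of at least 300 nt added, 6 were higher and 1 lower with AUF1 siRNA, and 7 were higher and 1 lower with HuR siRNA. TGFBI, a matrix protein that TGF-beta induces, was at 2.41 with AUF1 siRNA and 2.21 with HuR siRNA, and at 1.46 and 1.26 with assembled transcripts. ITGA5 was at 1.99 and 2.59, and at 1.07 and 1.99 with assembled transcripts. CTGF, another matrix-linked gene, was at 1.18 and 1.28, and at 1.11 and 1.22 with assembled transcripts. PALLD was at 3.05 and 3.12 by all annotated transcripts, but without LOWDATA transcripts it was listed at 0 with both knockdowns and had 11.2 FPKM with control siRNA, so its side depended on them. FHL2 was at 1.16 and 1.01, against 0.70 and 0.55 with assembled transcripts. TGFB1 was at -1.21 and ILK at 1.09 with AUF1 siRNA, while ROCK1, a kinase that promotes myosin contraction, was at -1.78 and, with assembled transcripts, at -0.94. MRTFA was at -1.98 with HuR siRNA, and at -1.52 with assembled transcripts. LIMK1 was at 1.36 with HuR siRNA, and at 0.44 with assembled transcripts. SMAD3 was at 1.10 with HuR siRNA, and at 0.92 without LOWDATA transcripts. TMSB10, an actin monomer binder, was at 1.01 and 1.09. Ratios of the knockdowns against PDL 15 were not computed for these lists. By FPKM, TMSB10 had 347 with AUF1 siRNA, 398 with HuR siRNA and 551 at PDL 15, and FHL2 had 89.9, 88 and 109.8. TGFB1 had 4.28 with AUF1 siRNA and 3.71 at PDL 15. On the other side, TGFBI, ITGA5 and CTGF had 153, 8.625 and 109 at PDL 15 by annotated transcripts, below both knockdown libraries. With assembled transcripts of at least 300 nt, ITGA5 and CTGF stayed below both. TGFBI then had 245.7 at PDL 15, above 238.6 with AUF1 siRNA and 226.1 with HuR siRNA. LASP1 and BCAR1 were listed at 0 with control siRNA, and PFN2 at 0 with both knockdowns.

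Between the knockdowns 2 of the 43 were higher with AUF1 siRNA, against 6.36% of all genes, and 3 were lower, against 6.3%. MRTFA was at 2.02, and at 1.70 with assembled transcripts of at least 300 nt. CFL2 at 1.35, ITGAV at -1.25 and ROCK1 at -1.11 came to 0.01, -0.05 and -0.22 with assembled transcripts. TMSB4X, an actin monomer binder, was at -1.11, and at -0.91 without LOWDATA transcripts. Control siRNA against PDL 15 had 4 of the 43 higher, against 14.0% of all genes, and 10 lower, against 11.6%, and with assembled transcripts 3 higher and 6 lower. TMSB4X was at -2.19, ARPC2, a subunit of the branching complex, at -1.56, TGFBR1 at -1.49 and TMSB10 at -1.45, and TGFB1 was at 1.61. TGFBI was at -1.55, and at -0.74 without LOWDATA transcripts. FHL2 was at -1.21, and at -0.78 with assembled transcripts. PALLD was at -2.05, but without LOWDATA transcripts it was listed at 0 at PDL 15 and had 11.2 FPKM with control siRNA.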

How the data were processed

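Total RNA of 5 WI-38 libraries was measured, 1 per group. Per the submitters' processing notes, TopHat2 2.0.6, Cufflinks 2.0.2 and Cuffdiff were used with hg19. The annotation release is not given in the sources used here. The authors deposited, per the file headers, FPKM with lower and upper 95% bounds, a coverage signal and a status per transcript. Strand was not stated, so overlapping antisense reads cannot be told apart.

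Of 160485 annotated transcripts, 98.6% were placed in a gene, by identifier, by GENCODE release 29, or by position (at least 50% of the span in 1 gene and less than 10% in another). FPKM and bounds were summed per gene, so the bounds cover only the estimate within a library. Genes with a mean of at least 1 FPKM over the 5 libraries were compared with a pseudocount of 1, without those having a FAIL transcript. The ratio code was checked on simulated data. With 1 library per group, no test was made. Genes named in each comparison are 16 fixed genes, plus members at least 2-fold apart with bounds that do not overlap and, for PDL 55 and the knockdowns, on the same side against both PDL 15 libraries without a knockdown. ACTN4, LMOD1, CNN3, PXN and others outside that rule were chosen after their values were seen. Some genes of the lists of genes acting on this machinery are counted but not reported here by name. The genes and lists were chosen with earlier results of these data known. Alternatives left out LOWDATA, kept FAIL, or used other pseudocounts, minimums, scalings, transcripts and references. Tables were processed with Python 3.11.15 and pandas 2.3.3.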

Additional observations from a re-analysis of the deposited data

Results flagged for a closer look

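Assembled transcripts, which enter only the alternatives, were present at 5 members whose annotated transcripts were listed at 0 in a library, at a level of at least 5 FPKM and above that in the library it was compared with (PDL 15 for PDL 55 and for control siRNA, control siRNA for the knockdowns). At ACTG1 they held 339 FPKM with HuR siRNA and 0 with control siRNA. At CNN2 they held 87.6 with HuR siRNA and 44.4 with control siRNA. At ZYX they held 90.3 with AUF1 siRNA, 68.3 with HuR siRNA and 28.1 with control siRNA. At FLNC they held 38 at PDL 55 and 18 at PDL 15. At TLN1 they held 54.7 with control siRNA and 0 at PDL 15.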

How the results depend on the processing

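No paired analysis was possible because each group had 1 library, and no library could be left out for the same reason. Of 204 counts and medians recomputed under alternatives, 158 stayed close to the reported value (counts within 1.5 times) and 46 moved. None of these could be recorded as reversed. Counts have no sign, and a reversal was recorded only for values at least 2-fold from the median gene, which no median reached. Of 1744 gene ratios 1569 stayed, 154 moved and 21 reversed. The cause of these shifts was not tested beyond what each alternative changes by its construction.

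With PDL 15 as the reference for the knockdowns, AUF1 siRNA had 4 genes higher, 1 lower and a median of 0.01, and HuR siRNA had 3 higher and a median of -0.08. With control siRNA as the reference for PDL 55, 9 were higher, against 15.5% of all genes, and 1 lower, against 16.4%. For the other alternatives, here and for the lists of genes acting on this machinery, the share of all genes called was not computed. Those counts therefore show only how the listed genes moved between settings. Leaving out genes listed at 0, chosen after seeing the data, gave 1 higher at PDL 55, 5 higher with AUF1 siRNA, 0 lower with HuR siRNA and 0 higher for AUF1 siRNA against HuR siRNA. Adding assembled transcripts, of any length or, chosen after seeing the data, of at least 300 nt, gave for AUF1 siRNA 5 higher and 1 lower, for HuR siRNA 1 lower, for AUF1 siRNA against HuR siRNA 1 higher and 1 lower, and for control siRNA against PDL 15 2 higher. Keeping genes with FAIL gave 6 lower at PDL 55, 13 higher and 2 lower with AUF1 siRNA, 14 higher and 6 lower with HuR siRNA, 5 higher and 2 lower for AUF1 siRNA against HuR siRNA, and 4 higher for control siRNA against PDL 15. Judging FAIL per comparison, chosen after seeing the data, gave 1 lower with AUF1 siRNA and 2 higher for control siRNA against PDL 15. With 1 transcript per gene, PDL 55 had 1 lower, AUF1 siRNA 15 higher, HuR siRNA 1 lower and control siRNA against PDL 15 2 higher. Without LOWDATA transcripts, PDL 55 had 1 lower and HuR siRNA 0 lower. As deposited, and likewise with no minimum, PDL 55 had 1 higher and AUF1 siRNA against HuR siRNA 2 lower, with HuR siRNA at 14 higher as deposited and 15 with no minimum. FPKM times length gave 2 lower for AUF1 siRNA against HuR siRNA. A pseudocount of 0.1, a minimum of 5 FPKM and upper quartile scaling moved none of the 15 counts and medians.

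By annotated transcripts, the ratio that reversed at PDL 55 with the other PDL 15 library was ACTG2 (0.38). With AUF1 siRNA the ratios that reversed in this way were MYL6 (-0.70), MYL12A (-0.78) and MYL12B (-0.24). With HuR siRNA the ratios were TAGLN2 (-0.27), MYL6 (-0.07), MYL12A (-0.10) and FLNA (-0.30). Those that reversed with assembled transcripts, of any length and of at least 300 nt, were PFN1 with either knockdown (-2.60 and -2.59), CNN2 with HuR siRNA (0.08 and 0.07), for AUF1 siRNA against HuR siRNA (-0.19) and for control siRNA against PDL 15 (0.08 and 0.09). FLNA without LOWDATA was counted as reversed with HuR siRNA (-0.30) and for control siRNA against PDL 15 (0.41). All of its FPKM lay on LOWDATA transcripts in those libraries, so these values are the shift of the median gene alone. TPM1 with 1 transcript reversed to 0.14 for control siRNA against PDL 15. Depth in reads was not known, so no counting limit is given.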
